A study of Mus musculus with 11 samples.

Results

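The transport of bile acids across the hepatocyte was examined through 10 genes, chosen by name for the membrane that their proteins serve, out of 46603 genes in the deposited count table. Sinusoidal uptake was represented by *Slc10a1*, *Slco1a1*, *Slco1a4* and *Slco1b2*, canalicular export by *Abcb11* and *Abcc2*, and basolateral export by *Slc51a*, *Slc51b*, *Abcc3* and *Abcc4*. All 10 were found in the table, and 9 passed the filter on low counts. Whole-liver RNA was sequenced from 4 mice treated with INT-767 and 7 given vehicle, once daily by oral gavage for 8 weeks. INT-767, a semisynthetic bile acid that activates the nuclear receptor FXR and the membrane receptor TGR5, was dosed at 10 mg/kg, and the vehicle was carboxymethyl cellulose. Both groups were male mice of the *ob/ob* genotype, strain B6.V-Lep ob/JRj, with no functional leptin in any tissue, and both ate the AMLN diet, which supplies fat, fructose and cholesterol in excess, from 5 to 6 weeks of age, for 15 weeks before treatment and throughout it. All mice had a wedge biopsy of the left lateral lobe before treatment and were included by its steatosis and fibrosis scores. They were stratified to the groups by type I collagen staining. The samples held no lean or chow-fed mice, so the levels given here are those of a steatotic and fibrotic liver with and without treatment. The RNA came from the left lateral lobe and was mRNA only, so that protein, membrane location and bile flow were not measured.

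Hepatocytes take bile acids up from sinusoidal blood, mainly through the sodium-dependent carrier NTCP (*Slc10a1*), with a contribution of the organic anion transporting polypeptides (the *Slco* genes), which also carry bilirubin, hormones and drugs. They secrete them across the canalicular membrane into bile through the bile salt export pump BSEP (*Abcb11*), while the multidrug resistance protein MRP2 (*Abcc2*) exports bilirubin glucuronides, glutathione conjugates and sulfated or glucuronidated bile acids. When bile acids accumulate, basolateral exporters can return them to blood: the heteromer of OSTα (*Slc51a*) and OSTβ (*Slc51b*), which needs both subunits, and the ABC transporters MRP3 (*Abcc3*) and MRP4 (*Abcc4*). FXR, the bile acid receptor encoded by *Nr1h4*, binds DNA with RXR, classically at an inverted repeat of a hexamer with a single base between the copies, and *Abcb11* and both *Slc51* genes are known target genes of it.

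Promoter windows of RefSeq (GRCm38.p6), from 250 bases before to 50 bases after an annotated start, were found for 9 of the 10 genes, in 11 windows, and none was found for *Abcc3*. The windows of the 3 transporters that passed the test below are shown, with that of *Slco1b2*, the other member window with a match to the relaxed inverted repeat. They are written 5′ to 3′ on the strand of the gene, with matches in capitals. The window of *Abcb11* lies at chr2:69342567-69342866 (minus strand), that of *Slc51b* at chr9:65422724-65423023 (minus strand), that of *Slco1a4* at chr6:141856171-141856470 (minus strand) and that of *Slco1b2* at chr6:141629268-141629567 (plus strand).
Abcb11: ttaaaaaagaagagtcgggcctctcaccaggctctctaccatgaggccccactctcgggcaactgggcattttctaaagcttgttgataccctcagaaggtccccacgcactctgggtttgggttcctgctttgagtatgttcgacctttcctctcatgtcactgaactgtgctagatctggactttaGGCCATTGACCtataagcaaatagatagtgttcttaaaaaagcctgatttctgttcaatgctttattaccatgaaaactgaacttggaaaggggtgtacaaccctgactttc
Slc51b: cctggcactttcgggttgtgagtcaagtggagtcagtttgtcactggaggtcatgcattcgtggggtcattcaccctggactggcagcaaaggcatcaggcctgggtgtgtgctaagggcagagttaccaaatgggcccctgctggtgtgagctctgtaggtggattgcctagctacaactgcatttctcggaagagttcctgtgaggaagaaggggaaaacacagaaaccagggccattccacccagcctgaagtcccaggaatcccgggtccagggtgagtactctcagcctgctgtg
Slco1a4: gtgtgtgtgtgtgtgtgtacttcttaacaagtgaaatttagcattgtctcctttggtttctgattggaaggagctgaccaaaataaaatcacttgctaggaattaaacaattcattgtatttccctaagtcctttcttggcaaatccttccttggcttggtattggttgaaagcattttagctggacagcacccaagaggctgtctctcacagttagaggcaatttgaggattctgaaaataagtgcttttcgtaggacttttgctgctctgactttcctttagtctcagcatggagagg
Slco1b2: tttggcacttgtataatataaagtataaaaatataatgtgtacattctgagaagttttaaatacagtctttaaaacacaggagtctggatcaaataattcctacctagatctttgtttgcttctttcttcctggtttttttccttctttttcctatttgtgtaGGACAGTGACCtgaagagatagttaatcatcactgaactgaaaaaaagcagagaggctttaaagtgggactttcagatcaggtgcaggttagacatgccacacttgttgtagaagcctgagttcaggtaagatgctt

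The inverted repeat of FXR in its strict form, 2 complete hexamers around a free base, searched on both strands, was in 0 of the 11 member windows and in 0.00913% of 32851 mouse windows. A relaxed form, which drops the outer base of each hexamer and leaves 1 more position of each free, was in 1.12% of all windows and in those of 2 members. In *Abcb11* it read GGCCATTGACC and began 62 bases before the start, and in *Slco1b2* it read GGACAGTGACC, 87 bases before the start. No match to it was found within the printed windows of *Slc51b* and *Slco1a4*. The palindromic HNF1 motif was in 0 member windows and 0.00913% of all windows. The core of the antioxidant response element, TGACNNNGC, was in 12.4% of all windows, in both windows of *Abcc4* and in that of *Abcc2*. Every strict inverted repeat also matches the relaxed form, and a match describes the sequence only.

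The libraries held 7381211 to 16022459 counted reads each (median 10878327). Levels are given as CPM, the count of a gene relative to its library's total after scaling by edgeR's TMM factors, and fold changes as log2 of INT-767 over vehicle. Some libraries stood apart in both groups. Across 13835 genes, the deviation of a gene's log2 level from its mean over the mice rose with transcript length in 7 libraries (Spearman's rho from 0.089 to 0.30) and fell with it in 4, namely vehicle mouse 1 (-0.18), vehicle mouse 7 (-0.23), INT-767 mouse 2 (-0.29) and INT-767 mouse 4 (-0.31). Vehicle mice 1 and 7 correlated with each other at 0.983 and with the other 5 vehicle mice at 0.909 to 0.969, while those 5 correlated with each other at 0.970 to 0.989 (Pearson's r of log2 CPM across genes, which are not independent replicates). Members therefore are also given within each of these sets of libraries, and the cause of the split was not tested.

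INT-767-treated livers had more mRNA of *Abcb11*, *Slc51b* and *Slco1a4*, that is, of 1 gene of each membrane side. By edgeR's quasi-likelihood test, these 3 of the 9 members tested were higher at an adjusted *p* under 0.05 (Benjamini-Hochberg over 13880 genes) and 0 were lower, where 5.04% of all genes tested were higher, 4.68% lower and 9.72% changed in either direction. At an unadjusted *p* under 0.05 the counts over all genes were 2414 higher and 2159 lower, and for the members DESeq2 gave 5 higher and 2 lower, beside 10.4% and 9.86% of all genes. The members that DESeq2 added were *Slc10a1* (adjusted *p* = 0.0480) and *Slco1b2* (0.0309) as higher, and *Abcc3* (0.0319) and *Abcc4* (0.0411) as lower. All 4 uptake genes had a positive fold change (median 0.83), the canalicular genes differed in sign, and *Abcc3* and *Abcc4* had negative ones, where the median of all genes tested was -0.01. That median was -0.22 without TMM factors and -0.09 with upper-quartile factors, so directions of gene lists whose median lies within these values of 0 depend on the scaling, while no member changed sign with it. In whole liver, fewer cells of a type and less RNA per cell cannot be told apart.

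**Figure D1:**
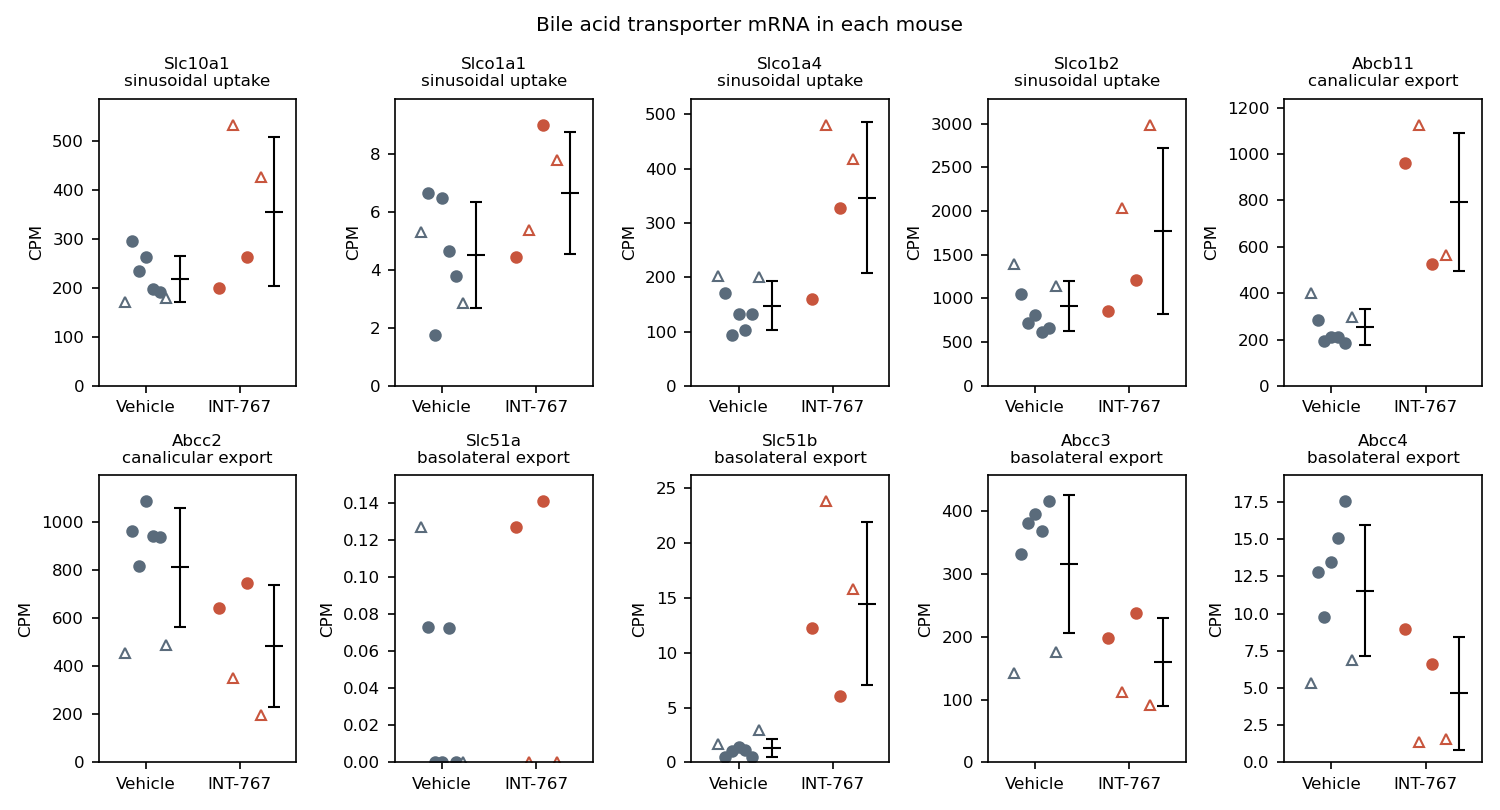
Level (CPM, linear axes from 0) of each transporter in each mouse, 7 Vehicle (grey) and 4 INT-767 (red). Open triangles are the 4 libraries whose levels fall with transcript length, filled circles the 7 whose levels rise with it, and black marks are the mean ± SD (not drawn for *Slc51a*, with 0 to 2 counts per mouse). The groups do not overlap in *Abcb11* and *Slc51b*.

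The bile salt pump *Abcb11* (ENSMUSG00000027048, chr2:69238282-69342616, GRCm38, minus strand, 29 exons) was the canalicular gene that rose. Its level was 184 CPM in the lowest, 213 in the median and 401 in the highest vehicle mouse. In INT-767 mice 1 to 4 it was 961, 1125, 524 and 563 CPM. Every treated mouse thus lay above every vehicle mouse, which was the case for 3.87% of all genes tested, while 3.65% were lower without overlap and 7.51% lacked overlap in either direction. The means were 793 ± 297 (SD, n = 4) and 255 ± 77.9 CPM (SD, n = 7), a log2 fold change of 1.64 (SE 0.26) or 3.11-fold (95% interval 2.10 to 4.62), with an adjusted *p* of 0.0047 by edgeR. A two-sided Mann-Whitney comparison, exact over all assignments of the mice, gave *p* = 0.00606, the smallest that 4 against 7 mice allow. Of its exon bases 3.01% lie opposite the genes *Gm13613* and *Gm13614*, and whether reads were counted by strand is not given in the sources used here.

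*Abcc2*, the canalicular conjugate pump (ENSMUSG00000025194, chr19:43782192-43840740, plus strand, 32 exons), went the other way in its values without passing the test. Vehicle mice ranged from 454 through a median of 940 to 1086 CPM. The treated mice had 644, 353, 748 and 197 CPM. The lowest vehicle values, 454 and 487, belonged to mice 1 and 7, and the lowest treated values to mice 2 and 4, so the 4 libraries that stand apart were the lowest of their groups. The log2 fold change was -0.74 (SE 0.36, 95% interval -1.52 to 0.03) with an adjusted *p* of 0.165, and the exact Mann-Whitney *p* was 0.0727. Counted per length, *Abcb11* held 23.8% to 58.5% of the canalicular pair in vehicle mice and 52.8% to 83.6% in treated mice, and the ratio of *Abcb11* to *Abcc2* was 0.313 to 1.41 against 1.12 to 5.10. Both ranges overlapped, through vehicle mouse 1 and INT-767 mouse 3.

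On the basolateral side the OSTβ subunit *Slc51b* (ENSMUSG00000053862, chr9:65412714-65422955, minus strand, 4 exons) had the largest fold change of the members tested. It was scarce with vehicle, from 0.487 through a median of 1.16 to 2.98 CPM, which were 6 to 51 reads per mouse. With INT-767 it was 12.3, 23.8, 6.05 and 15.8 CPM, or 193, 172, 43 and 211 reads. The lowest treated value lay above the highest vehicle value. The mean went from 1.31 ± 0.847 (SD, n = 7) to 14.5 ± 7.39 CPM (SD, n = 4), a log2 fold change of 3.43 (SE 0.45) or 10.8-fold (95% interval 5.51 to 21.1), with an adjusted *p* of 0.00234 by edgeR and an exact Mann-Whitney *p* of 0.00606. Of its exon bases 12.8% lie opposite *Rasl12*, and 2.83% of the 75-base windows of its transcripts also occur in that gene.

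Its partner *Slc51a*, the OSTα subunit (ENSMUSG00000035699, chr16:32474504-32487879, minus strand, 9 exons), was not detectable above the floor. Vehicle mice 1 to 7 had 1, 1, 0, 0, 1, 0 and 0 reads, and INT-767 mice 1 to 4 had 2, 0, 1 and 0. Both groups summed to 3 reads, no mouse exceeded the 3 reads that a count of 0 allows, and neither a test nor a fold is given. These few reads cannot be assigned with confidence, since 17.7% of the exon bases of *Slc51a* lie opposite *Pcyt1a* and 15.4% of its 75-base windows occur there too. The mRNA of only 1 of the OST subunits was thus measurable at this depth.

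MRP3 and MRP4 are basolateral pumps known to be induced in cholestasis. *Abcc3* (ENSMUSG00000020865, chr11:94343295-94392997, minus strand, 31 exons) ranged from 143 through a median of 369 to 415 CPM with vehicle and was 197, 111, 238 and 90.8 CPM with INT-767. The lowest vehicle values, 143 and 176, belonged to mice 1 and 7, and the lowest treated values to mice 2 and 4. Its log2 fold change of -0.99 (SE 0.35, 95% interval -1.74 to -0.23) did not pass the test, with an adjusted *p* of 0.0842 and an exact Mann-Whitney *p* of 0.0727. *Abcc4* (ENSMUSG00000032849, chr14:118482692-118706219, minus strand, 31 exons) ranged from 5.33 through 12.8 to 17.5 CPM with vehicle and was 8.96, 1.38, 6.62 and 1.57 CPM with INT-767. The treated mice 2 and 4 were below every other mouse, and mice 1 and 3 fell inside the vehicle range. Its log2 fold change was -1.30 (SE 0.50, 95% interval -2.38 to -0.22), with an adjusted *p* of 0.102 over all genes and an exact Mann-Whitney *p* of 0.0424, not adjusted for other genes. Leaving out single mice moved that exact *p* to between 0.0190 and 0.117, above 0.05 for 8 of the 11 mice. Without INT-767 mouse 1 the log2 fold change was -1.90 (adjusted *p* = 0.0418 by edgeR). Without INT-767 mouse 2 it was -1.02 (0.271), and without INT-767 mouse 4 it was -0.995 (0.232).

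Among the uptake carriers only *Slco1a4* (ENSMUSG00000030237, chr6:141805440-141856199, minus strand, 17 exons), which encodes OATP1A4, passed the test. Vehicle mice ranged from 93.7 through a median of 133 to 203 CPM, and the treated mice had 160, 480, 327 and 418 CPM. Mice 2, 3 and 4 of the treated group were above every vehicle mouse, and mouse 1 was within their range. The mean was 346 ± 139 CPM (SD, n = 4) in the treated and 148 ± 44.4 (SD, n = 7) in the vehicle group, a log2 fold change of 1.23 (SE 0.29) or 2.34-fold (95% interval 1.52 to 3.61), with an adjusted *p* of 0.0242 by edgeR and an exact Mann-Whitney *p* of 0.0424. The call was lost without vehicle mice 5 or 6, with an adjusted *p* of 0.0505 or 0.0537 at log2 fold changes of 1.15 and 1.20, and without treated mice 2 or 4, with 0.109 or 0.0548 at 1.01 and 1.11. The exact Mann-Whitney *p* was above 0.05 when any 1 mouse was left out among vehicle mice 3 to 6 (0.0667 each) or treated mice 2 to 4 (0.117 each). It shares 1.03% of its 75-base windows with other *Slco1a* genes.

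*Slco1b2*, the OATP1B2 carrier of liver (ENSMUSG00000030236, chr6:141629518-141686646, plus strand, 16 exons), had 622 to 1391 CPM with vehicle (median 814) and 855, 2037, 1214 and 2983 CPM with INT-767. Mice 2 and 4 of the treated group were above all vehicle mice, and mice 1 and 3 were not. The log2 fold change was 0.95 (SE 0.32, 95% interval 0.26 to 1.65) and its adjusted *p* 0.0739. *Slc10a1*, the sodium-dependent NTCP (ENSMUSG00000021135, chr12:80953183-80968705, minus strand, 6 exons), had 171 to 296 CPM with vehicle (median 197) and 199, 532, 262 and 427 CPM with INT-767. Again only treated mice 2 and 4 were outside the vehicle range, and the log2 fold change of 0.70 (SE 0.25, 95% interval 0.15 to 1.25) had an adjusted *p* of 0.0867. *Slco1a1*, which encodes OATP1A1 and is known as a carrier more abundant in male than in female mouse liver (ENSMUSG00000041698, chr6:141907282-141946962, minus strand, 15 exons), was low in all mice, 1.77 to 6.67 CPM with vehicle (median 4.65) and 4.45, 5.39, 9.01 and 7.79 CPM with INT-767. Its log2 fold change was 0.56 (SE 0.33, 95% interval -0.16 to 1.28) with an adjusted *p* of 0.242. The exact Mann-Whitney *p* of these genes was 0.0727, 0.0727 and 0.164 in the same order.

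The members were also read within the libraries whose levels rose with transcript length (5 vehicle and 2 INT-767) and within those whose levels fell with it (2 and 2). These sets were not matched on GC content. In the first, Spearman's rho of level with it was 0.018 to 0.44 with vehicle and -0.059 and -0.16 with INT-767. In the second it was -0.42 and -0.12 with vehicle and -0.26 and -0.24 with INT-767. *Abcb11* and *Slc51b* were higher with INT-767 without overlap in both sets, as were 11% of all genes tested. *Abcb11* was at 184 to 284 against 524 to 961 CPM in the first set and at 298 to 401 against 563 to 1125 in the second. *Abcc2*, *Abcc3* and *Abcc4* were lower without overlap in both sets, as were 9.89% of all genes tested. For *Abcc2* the ranges were 816 to 1086 against 644 to 748 CPM, and 454 to 487 against 197 to 353. For *Abcc3* they were 331 to 415 against 197 to 238 CPM, and 143 to 176 against 90.8 to 111. For *Abcc4* they were 9.77 to 17.5 against 6.62 to 8.96 CPM, and 5.33 to 6.89 against 1.38 to 1.57. The 4 uptake genes overlapped in the first set and were higher without overlap in the second, a pattern that 15.1% of all genes tested had. In the first set *Slc10a1* averaged 236 CPM with vehicle and 231 with INT-767. The other uptake genes had higher means with INT-767 in that set. For *Slco1a4* the means were 126 and 244 CPM, for *Slco1b2* 776 and 1034, and for *Slco1a1* 4.68 and 6.73. In the second set *Slc10a1* was at 171 to 179 against 427 to 532 CPM. Sets of 5 against 2 and of 2 against 2 mice allow no exact two-sided *p* under 0.05.

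**Figure D2:**
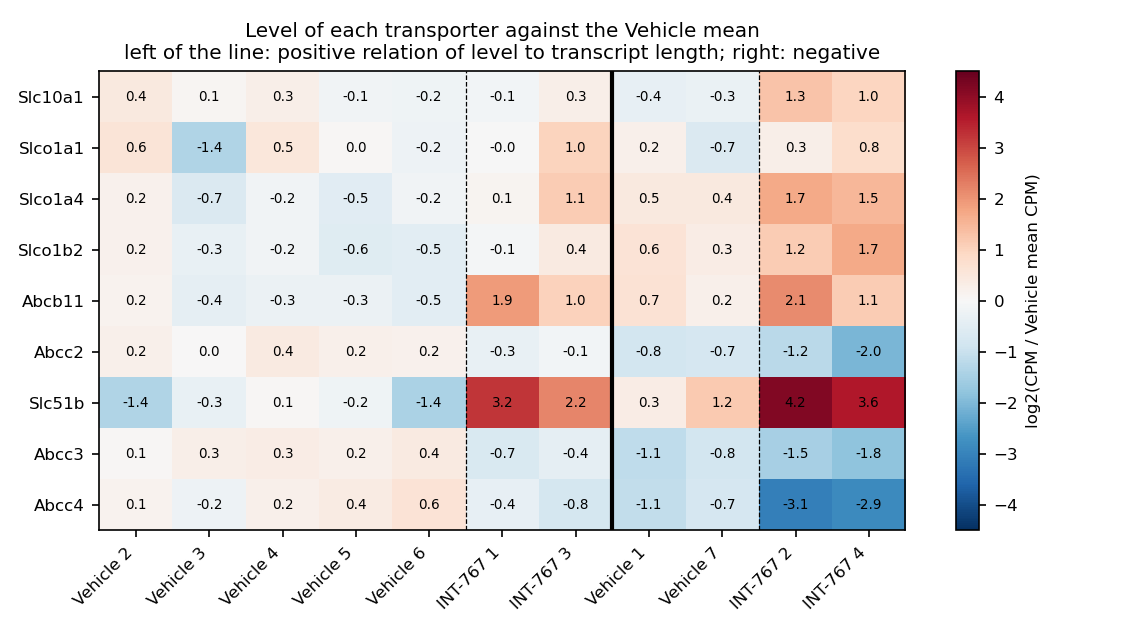
Log2 of each mouse's CPM over the Vehicle mean, for the 9 transporters tested, with mice in columns. The thick line parts the 7 libraries whose levels rise with transcript length (left) from the 4 whose levels fall with it (right), and dashed lines part Vehicle from INT-767. On both sides INT-767 columns are red for *Abcb11* and *Slc51b* and bluer than their Vehicle neighbours for *Abcc2*, *Abcc3* and *Abcc4*, while *Slc10a1*, *Slco1a4* and *Slco1b2* are reddest in INT-767 2 and 4.

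A term for these sets of libraries, added after seeing the data, was put in the same edgeR fit. It called 4 members higher and 3 lower, beside 14.7% and 14.4% of all genes, so that members were called more often but so were genes in general. *Abcb11* had a log2 fold change of 1.57 (adjusted *p* = 0.000178), *Slc51b* 3.22 (3.35e-06), *Slco1a4* 1.03 (0.00156) and *Slco1b2* 0.65 (0.0194). The lower genes were *Abcc3* at -0.74 (0.00111), *Abcc4* at -1.18 (0.00263) and *Abcc2* at -0.58 (0.0156). *Slc10a1* at 0.61 (0.0845) and *Slco1a1* at 0.59 (0.167) did not pass. The fold changes of *Abcc2*, *Abcc3* and *Abcc4* were smaller in size than without the term. Their standard errors were 0.16, 0.13 and 0.24 in place of 0.36, 0.35 and 0.50. The sets were themselves derived from the levels that were then tested, so the smaller errors and added calls are not independent evidence. Leaving aside vehicle mice 1 and 7, also chosen after seeing the data, gave the same 4 higher and 3 lower members, beside 19.8% and 15.8% of all genes, with *Abcc2* at -0.97 (0.0404), *Abcc3* at -1.25 (0.00993) and *Abcc4* at -1.54 (0.0286). That fit kept INT-767 mice 2 and 4, so that treatment and the set of libraries are unevenly matched in it and cannot be fully told apart.

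Fold changes were related to GC content and transcript length across genes (Spearman's rho -0.30 and -0.24). With an offset for the trends of each library on these properties, edgeR placed *Abcb11* at 1.78 (adjusted *p* = 0.00292), *Slc51b* at 3.18 (0.000651) and *Slco1a4* at 0.94 (0.0134). These 3 passed and 0 members were lower, beside 7.75% and 5.85% of all genes. *Slco1b2* at 0.46 (0.108) and *Slco1a1* at 0.17 (0.745) moved most, from 0.95 and 0.56, and *Slc10a1* at 0.56 (0.128) moved least, from 0.70. *Abcc3* at -0.69 (0.0674), *Abcc4* at -1.05 (0.0704) and *Abcc2* at -0.52 (0.161) stayed below 0 without passing.

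**Figure D3:**
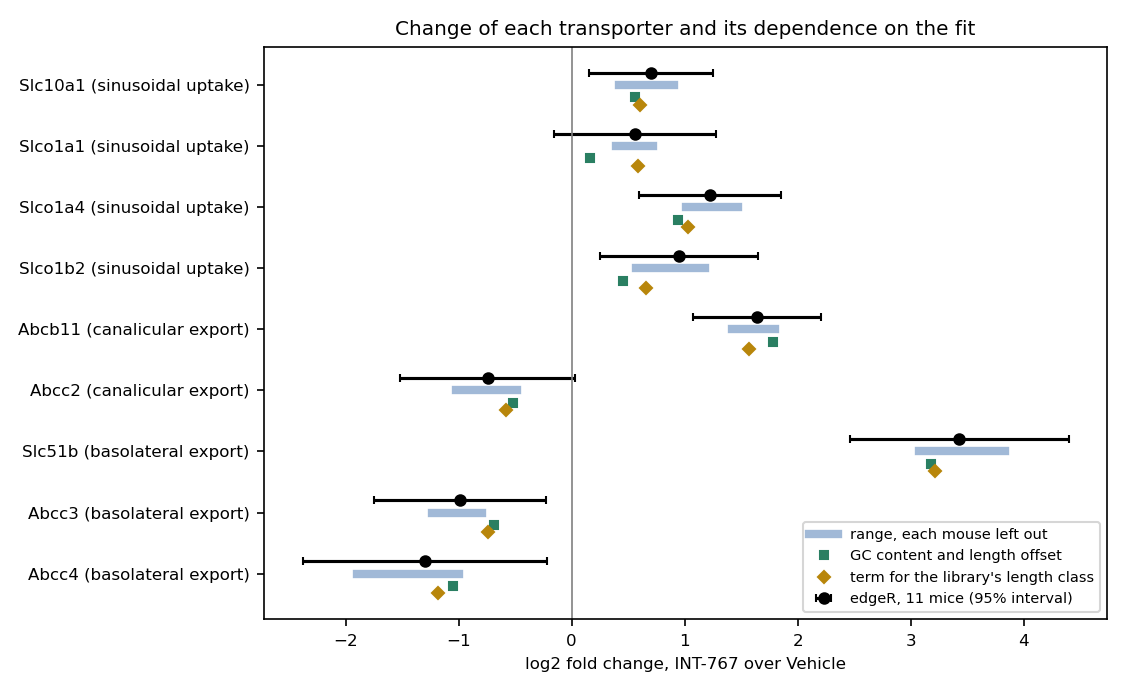
Log2 fold change (INT-767 over Vehicle) of the 9 transporters tested, by edgeR in 11 mice (black, 95% interval), as the range when each mouse is left out (blue bar), with the GC content and length offset (green) and with the term for the libraries' length class (ochre). No value changes sign between these fits, and the intervals of *Slco1a1* and *Abcc2* include 0.

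Levels of different genes were compared as RPKM, the CPM per kilobase of the longest transcript. With vehicle *Slco1b2* was the most abundant (277 ± 86.9 RPKM, SD, n = 7), followed by *Slc10a1* (125 ± 26.8), *Abcc2* (101 ± 30.7), *Abcc3* (63.1 ± 22), *Abcb11* (50.7 ± 15.5) and *Slco1a4* (38.7 ± 11.6). A wide step led down to *Abcc4* (2.02 ± 0.772), *Slc51b* (1.85 ± 1.19) and *Slco1a1* (1.16 ± 0.468), with *Slc51a* last at 0.0149. The ranges of neighbours over the 7 mice were separate between *Slco1b2* and *Slc10a1*, between *Slco1a4* and *Abcc4* and between *Slco1a1* and *Slc51a*, and those of all other neighbours overlapped. Which neighbours were separate depended on the length used, since with the union of exons *Slco1b2* and *Slc10a1* overlapped (126 to 282 against 77.8 to 134 RPKM) and *Abcb11* and *Slco1a4* did not.

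With INT-767 the uptake carriers *Slco1b2* (536 ± 286 RPKM, SD, n = 4) and *Slc10a1* (203 ± 87.0) still led, and *Abcb11* (158 ± 59.0) and *Slco1a4* (90.6 ± 36.5) had higher means than *Abcc2* (60.5 ± 31.8) and *Abcc3* (31.9 ± 14). The ranges of *Slco1a4* and *Abcc2* overlapped, *Slco1a4* was above *Abcc2* in 2 of 4 mice, and with the union of exons the order of their means was reversed (54.0 and 56.9 RPKM). *Slc51b* (20.4 ± 10.4) was seventh, above *Slco1a1* (1.71 ± 0.540) without overlap. Its range overlapped that of *Abcc3*, which was above it in 2 of 4 mice. *Abcc4* (0.811 ± 0.659) and *Slc51a* (0.0256) were last. Within the basolateral genes, *Slc51b* made up 0.793% to 10.3% of the RPKM in vehicle mice and 29.6%, 59.8%, 14.9% and 54.8% in INT-767 mice 1 to 4, with no overlap. The sum over the basolateral genes was 66.9 ± 21.8 RPKM with vehicle and 53.1 ± 8.32 with INT-767. The uptake sum was 442 ± 96.2 and 831 ± 388 RPKM, and the canalicular sum 152 ± 21.3 and 218 ± 64.3. All 3 sums overlapped between the groups, and *Slco1b2* made up 56.9% to 73.4% of the uptake sum with vehicle and 58.8% to 71.7% with INT-767.

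**Figure D4:**
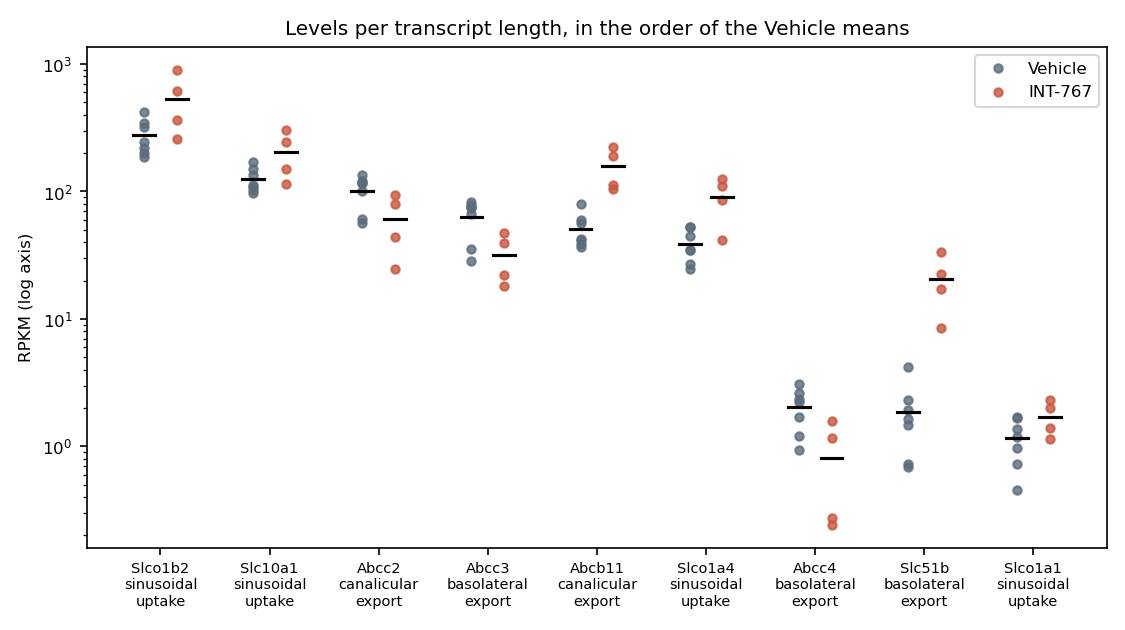
RPKM (log axis) of 9 transporters in each mouse, ordered by the Vehicle mean, with Vehicle in grey, INT-767 in red and group means as black bars. *Slco1b2* is at the top in both groups. The mean of *Slc51b* moves from the low group to between it and the abundant genes, and the INT-767 values of *Slc51b* overlap those of *Abcc3*. *Slc51a*, with at most 2 reads in a mouse, is not drawn.

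The genes around transport were read from lists written with earlier results of these data known. FXR itself (*Nr1h4*) had 132 ± 18.7 CPM with vehicle (SD, n = 7) and 111 ± 11.1 in the treated mice (SD, n = 4), which is -0.25 on the log2 scale (adjusted *p* = 0.232), and the TGR5 gene *Gpbar1* had 14 and 7 reads in all and was not tested. Of 18 hepatic FXR targets outside transport that were tested, 5 were higher and 0 lower. Among them were *Akr1b7*, an aldo-keto reductase (log2 fold change 3.62), *Nr0b2*, which encodes the corepressor SHP (1.54), *Apoa5*, an apolipoprotein of triglyceride metabolism (1.37), and *Sdc1*, a heparan sulfate proteoglycan (0.75). Of the 11 tested genes of FXR signalling and its partners, 2 were higher, *Nr0b2* and the xenobiotic receptor PXR gene *Nr1i2* (0.51), and 0 lower. Of 18 genes of bile acid synthesis and conjugation, 3 were higher and 2 lower. The higher genes were *Akr1d1*, a reductase of the sterol ring (2.10), *Sult2a8*, a sulfotransferase (1.31), and *Slc27a5*, a bile acid-CoA ligase (0.92). The lower genes were *Cyp7a1* (-1.62), the rate-limiting enzyme, and *Cyp8b1* (-4.60), which makes the precursor of cholic acid.

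The canalicular membrane list holds genes of trafficking, tight junctions and inherited cholestasis, and 5 of 18 were higher and 0 lower, with a median of -0.10. *Atp8b1*, a phospholipid flippase whose loss causes cholestasis, was at 48.6 ± 9.92 with vehicle and 77.8 ± 19.2 CPM with INT-767 (log2 fold change 0.68, adjusted *p* = 0.0384). *Slc9a3r1*, a scaffold of apical transporters, had a log2 fold change of 0.69, the junction proteins *Cldn1* and *Lsr* 0.72 and 0.69, and *Usp53* 0.79. *Abcb4*, the canalicular phospholipid floppase and the most abundant gene of the list, had a log2 fold change of -0.31 (adjusted *p* = 0.478). Of 19 tested target genes of PXR and CAR, receptors known to act on *Slco1a4* and *Abcc2*, 5 were higher and 0 lower with a median of 0.65. The higher genes were *Gstm3* (2.16), *Cyp2c54* (2.00), *Ces2a* (1.38), *Abcb1a* (1.32) and *Cyp3a25* (0.92). Of 17 NRF2 targets, a list of the factor known to act on *Abcc2*, *Abcc3* and *Abcc4*, 4 were higher, among them *Gsta2* (2.27), *Gsta4* (2.21), *Gstm3* (2.16) and *Gclm* (0.71), and 2 lower, among them *Hmox1* (-1.21), with a median of 0.04.

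Other genes of the same families were also looked at. Of the 6 tested *Abcc* genes that are not members, all 6 had a negative fold change (median -0.94) and 0 passed the test. Among them *Abcc1* was at -1.33 (adjusted *p* = 0.0597) and *Abcc6* at -0.06 (0.894). With the untested gene, these 7 summed to 120, 229, 288, 293, 346, 294 and 136 CPM in vehicle mice 1 to 7. In INT-767 mice 1 to 4 they summed to 263, 161, 239 and 125 CPM. The sums thus overlapped in both sets of libraries, and *Abcc6* was the most abundant (148 and 141 CPM). Of the 8 tested *Abcb* genes, 2 were higher, *Abcb1a* (1.32), a xenobiotic pump of the canalicular membrane, and the mitochondrial *Abcb10* (0.54). Of the 3 tested *Slco* genes 0 passed, and of the 4 tested *Slc10a* genes 2 were higher. *Slc10a2*, the apical sodium-dependent bile acid transporter of ileum, kidney and bile duct cells, went from 20.1 ± 8.01 (SD, n = 7) to 53.2 ± 16.1 CPM (SD, n = 4) without overlap (log2 fold change 1.40, adjusted *p* = 0.0118), and the orphan carrier *Slc10a5* had a log2 fold change of 0.90 (adjusted *p* = 0.0184). The male-biased liver genes, which are relevant to *Slco1a1*, had 3 higher (*Elovl3* 1.76, *Cyp2f2* 1.23 and *Mup21* 1.13) and 2 lower (*Cyp4a12a* -2.79 and *C6* -1.63) of 15 tested. The female-biased genes had 3 higher, among them *Fmo2* (1.23) and *Acot3* (1.11), and 1 lower, *Tox* (-1.12), of 14.

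The tissue matched its label, with *Alb* the most abundant of 14 hepatocyte markers found (43057 and 63913 CPM on average with vehicle and INT-767). The summed hepatocyte markers were 69375, 85715, 77763, 73973, 71651, 69866 and 62525 CPM in vehicle mice 1 to 7 and 117046, 114247, 98895 and 64838 in INT-767 mice 1 to 4. Of these markers 1 was higher, *Ass1* (1.31), and 0 lower, with a median log2 fold change of 0.19. Treated mouse 4, with high *Slco1b2* and low *Abcc2*, thus had a hepatocyte sum within the vehicle range, and the other 3 were above it. The sum averaged 72981 CPM with vehicle and 98756 with INT-767, and most of it was *Alb*.

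Bile duct cells also express several of these exporters. Of 15 cholangiocyte markers 0 were higher and 2 lower, *Muc1* (-1.42) and *Cldn4* (-1.29), with a median of -0.67, and *Spp1* was the most abundant (996 and 733 CPM). Their sum was 2082, 887, 932, 1001, 1062, 1037 and 1675 CPM in vehicle mice 1 to 7 and 475, 712, 1009 and 1470 in INT-767 mice 1 to 4. The sum was mostly *Spp1*, which is also in the macrophage list. Without it, the other 14 markers summed to 219, 203, 208, 260, 295, 261 and 261 CPM with vehicle and to 155, 154, 260 and 164 with INT-767, and vehicle mice 1 and 7 and INT-767 mouse 4, the highest of their groups with *Spp1*, did not stand out. None of the 15 markers was without counts, and their part in the transporter results was not tested.

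Some markers of other liver cells were also called. Of 15 macrophage markers 2 were lower, *Cd68* (-1.16) and *Csf1r* (-1.14), with *Spp1* again the most abundant. Their fold changes were negative for 14 and positive for 1, with a median of -0.55. Their sum, *Spp1* included, was 2923, 1511, 1597, 1548, 1768, 1862 and 2456 CPM in vehicle mice 1 to 7 and 878, 1175, 1240 and 2529 in INT-767 mice 1 to 4. Without *Spp1* it was 1060, 827, 872, 807, 1001, 1086 and 1042 CPM with vehicle and 558, 617, 491 and 1223 with INT-767. INT-767 mouse 4 then lay above every vehicle mouse, and INT-767 mice 1 to 3 lay below every vehicle mouse. Of 15 stellate cell and myofibroblast markers 3 were lower, *Col1a1* (-2.96), *Col1a2* (-2.35) and *Pdgfrb* (-1.31), and *Dcn* was the most abundant (472 and 549 CPM). Of these markers 10 had a negative and 5 a positive fold change, with a median of -0.63. Their sum was 1402, 1113, 1337, 1325, 2132, 1907 and 1096 CPM with vehicle and 837, 914, 983 and 1635 with INT-767. Of 15 sinusoidal endothelial markers 0 passed in either direction (sum 507 ± 134 and 377 ± 62.7 CPM), and *Ptprb* was the most abundant (68.9 and 54.3 CPM). The 4 kidney and ileum markers *Slc34a1*, *Slc22a6*, *Kap* and *Alpi* had no count in any mouse, while *Fabp2* had 203 and 425 CPM on average. No macrophage, stellate or endothelial marker was without counts. The part of these cells in the transporter results was not tested.

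The genes whose log2 levels most resembled those of the 2 transporters without overlap were named by the highest Pearson's r over the 11 mice, which share treatment and library differences. For *Abcb11* they were *Cyp2a12*, *Etnppl*, *Ahctf1*, *Magt1* and *Aass* (r from 0.970 to 0.977). For *Slc51b* they were *Acy1*, *Tmprss4*, *Sdhb*, *Gm6135* and *Fkbp4* (r from 0.960 to 0.978). These are descriptions over 11 mice, without a test.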

How the data were processed

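Liver mRNA of 7 vehicle-treated and 4 INT-767-treated mice, grouped by the sample labels, was sequenced on a NextSeq 500 (75 cycles) from stranded libraries. The authors aligned the reads to GRCm38, with STAR (2.4.0 in the submitters' processing notes, another version in the study's methods), and deposited whole-number read counts per gene, without normalization. How reads were counted, with or without strand, and in which batches libraries were made is not given in the sources used here. Each sample is 1 mouse.

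Genes were filtered by filterByExpr (minimum count 10, minimum total 15) and compared with edgeR 4.0.16 under R 4.3.3 (TMM factors from 0.843 to 1.14, glmQLFit with robust set, glmQLFTest, treatment only). Adjusted *p* are Benjamini-Hochberg over 13880 genes, with a threshold of 0.05. For single members a Mann-Whitney test (exact, two-sided) was run on CPM over all 330 assignments. RPKM used the longest transcript of GENCODE M21, which matched 46091 of 46603 gene identifiers and gave coordinates, exons and shared 75-base windows. Promoters are those of RefSeq. The floor for a count of 0 was 3 reads per mouse. Floors cover counting error only.

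The members, lists, motifs and tests were chosen with earlier results of these data known. Named were all members, *Nr1h4*, *Nr0b2* and *Gpbar1*, up to 5 called genes of each list or family with the largest fold change, the most abundant gene of each marker list, and the 5 genes most like *Abcb11* and *Slc51b*. A gene chosen by this rule is not reported here. *Abcb4*, *Abcc1*, *Abcc6* and the kidney and ileum genes without counts were named after their values were seen. Alternatives were 3 other scalings, 2 filters, a replicate block, a GC content and length offset (lowess, span 0.3), each mouse left out, DESeq2 1.42.0, limma-voom 3.58.1 with and without sample weights, and a threshold of 0.01. Simulated data of this design with 200 of 13749 genes changed by 2 on the log2 scale were used to test the tools, and edgeR recovered 92% of them and called 10 others. Figures were drawn with matplotlib 3.10.9.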

Additional observations from a re-analysis of the deposited data

How the results depend on the processing

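No fold change of the 9 members tested changed sign under any of the 25 alternatives (24 for *Slc51b*, which was not tested where at least 10 counts were required in every mouse). *Abcb11* and *Slc51b* lost their call in the 2 fits with the replicate block only, and *Slco1a4* in 7 alternatives. Higher and lower genes numbered 331 and 1026 with library size only (24.4% of calls higher, against 51.9%), 1443 and 1368 with DESeq2 (5 and 2 members), 1658 and 1221 with sample weights in limma-voom (4 and 2 members), and 158 and 87 at a threshold of 0.01. The members that the sample weights added were *Slco1b2* (adjusted *p* = 0.0431 by limma-voom) as higher, and *Abcc3* (0.0236) and *Abcc4* (0.0372) as lower. With upper-quartile factors 36.5% of calls were higher. The GC content and length offset gave 1072 higher genes. With library size only the median of all genes moved to -0.22. Chosen after seeing the data, the term for the libraries' length class gave 2039 higher and 1999 lower genes (4 and 3 members), and leaving aside vehicle mice 1 and 7 gave 2701 and 2160 (4 and 3 members). The causes of these shifts were not tested.

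Leaving out each mouse gave 164 to 1906 higher and 110 to 1370 lower genes, with 2 to 5 members higher and 0 to 1 lower. The extremes of the counts over all genes came from leaving out INT-767 mouse 2 and vehicle mouse 1. Without INT-767 mouse 1, 5 members were higher, with *Slc10a1* (adjusted *p* = 0.0339) and *Slco1b2* (0.0329) added, and *Abcc4* (0.0418) was lower. Without vehicle mouse 1, *Slco1b2* (0.0334) was higher and *Abcc3* (0.0286) lower. Adjusted *p* of *Slco1a4* ranged from 0.00872 to 0.109, of *Abcb11* from 0.00321 to 0.0232 and of *Slc51b* from 0.00115 to 0.0108.

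The replicate block, which pairs mice of the same number, gave 0 higher and 0 lower genes and 0 members, also with the GC content and length offset (565 and 782 genes at an unadjusted *p* under 0.05 by edgeR without the offset). Its adjusted *p* was 0.195 for *Abcb11* and for *Slc51b*. The deviations of same-numbered mice correlated at -0.69, 0.22, 0.15 and -0.48, and 1 of 4 vehicle mice correlated best with its own number, so the mice share only a number.

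With the exon union as length, only *Slc51b* and *Abcc4* exchanged ranks among the vehicle levels, to 7 and 8, and only *Slco1a4* and *Abcc2* among the INT-767 levels. Of 4 correlations fixed over the vehicle mice, 1 needed *Slc51a* and could not be computed, and none of the other 3 passed an exact permutation test (lowest adjusted *p* = 0.199, Spearman's). Their coefficients are not given, since 2 of the 7 mice stand apart. A comparison of the member proteins was not run. The reads of *Slc51a* were too few for a test at this depth.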
